A study of Mus musculus with 8 samples.

Results

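Crypt base stem cell markers were compared between WT and cancer cells of mouse small intestinal organoids, cultured apart or together. The 8 markers, Lgr5, Ephb2, Cd44, Prom1, Ascl2, Sox9, Olfm4 and Smoc2, were chosen by name. All 8 had a row in the read count table of 13420 genes, and 7 were among the 5264 genes that passed the filter on low counts. Olfm4 did not pass and is given by its reads alone. Organoids were sorted 3 days after mixing and sequenced in bulk, as 2 libraries in each of 4 groups. Each library is named by its well. Pure WT cells (A01 and A05) and mixed WT cells (A02 and A06) were C57BL/6 and carried mTmG, a reporter whose membrane-bound tomato protein served for the sort. Pure cancer cells (A03 and A07) and mixed cancer cells (A04 and A08) were C57BL/6 (F6), labeled with the green protein Dendra2, and carried Villin-CreERT2 with Apc fl/fl and Tr53 fl/R172H among their engineered alleles. In these cells a tamoxifen-induced Cre under the Villin promoter, which is active in intestinal epithelium, deletes the floxed alleles. Mixed cultures held 2 WT cells to 1 cancer cell at the start, and all cultures received EGF, Noggin and R-spondin1. The sources used here do not give the number of animals or lines behind the libraries, so p-values measure the spread between these samples, which may be technical.

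The crypt base columnar cell renews the intestinal epithelium and depends on Wnt signaling, which R-spondins strengthen through LGR5 and its relatives, and on Notch signals from neighboring Paneth cells. Several of the 8 genes are Wnt targets. Loss of Apc leaves the Wnt pathway on without ligand. The markers differ in kind: Lgr5, Ephb2, Cd44 and Prom1 encode surface proteins, Ascl2 and Sox9 encode transcription factors, and Olfm4 and Smoc2 encode secreted proteins.

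Sequence upstream of the start was available in RefSeq (GRCm38.p6) for 5 of the 8 genes, as 6 windows of 250 bases, since Prom1 had more than a single start. Lgr5, Smoc2 and Sox9 had no entry. Shown here are the windows of Ascl2 and Cd44, which lie before every annotated transcript of their gene and belong to the markers with the lowest and the highest level in pure cancer relative to pure WT cells among those read in every library. The windows span chr7:142969265-142969514 for Ascl2 and chr2:102901666-102901915 for Cd44, both on the minus strand and printed 5′ to 3′. Capitals mark the RBPJ core TGGGAA, the motif of the factor that carries the Notch signal, on either strand.
Ascl2: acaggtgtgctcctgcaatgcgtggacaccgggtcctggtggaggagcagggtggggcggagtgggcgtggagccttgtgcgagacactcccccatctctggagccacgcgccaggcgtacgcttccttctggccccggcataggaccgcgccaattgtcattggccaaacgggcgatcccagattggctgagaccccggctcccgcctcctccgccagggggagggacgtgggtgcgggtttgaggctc
Cd44: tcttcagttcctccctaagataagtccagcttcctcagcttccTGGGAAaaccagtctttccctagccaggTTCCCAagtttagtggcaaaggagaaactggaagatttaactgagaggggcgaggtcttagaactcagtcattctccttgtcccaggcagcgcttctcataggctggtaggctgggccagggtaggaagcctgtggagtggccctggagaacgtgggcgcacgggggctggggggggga
The RBPJ core was present 2 times in the Cd44 window, 1 time in Olfm4 and 1 time in 1 of the Prom1 windows, and 21.6% of 32851 promoter windows of this length held it. The TCF/LEF core CTTTGA, bound by the factors that carry the Wnt signal, was searched on both strands too. It was in 0 of the 6 windows and in 13.8% of all promoters. A match or its absence describes only the letters in these windows.

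Depth differed widely, from 73109 reads in A02 to 4733121 in A04, and the other 6 libraries held 201137 to 1905693 reads. Levels are given in CPM, the reads of a gene scaled to a common library size, with TMM normalization. Since CEL-Seq reads a single end of each transcript and includes amplification copies, levels are compared between groups within a gene and not between genes. A count of 0 allows up to 3 reads, which made 38.4 CPM in A02, 15.3 in A03, 15.1 in A08, 8.68 in A07, 6.59 in A06, 2.65 in A01, 1.62 in A05 and 0.565 in A04. Floors and counting intervals cover counting error only. The 8 markers together had 17 reads in A02, 52 in A03, 83 in A08, 143 in A07 and 215 in A06, against 577 in A01, 1267 in A05 and 2206 in A04. Epithelial markers were present in every library, at a summed level of 4412 to 14979 CPM over 8 genes. Of these, Cdx1, an intestinal identity factor, had 779 reads in pure and 57 in mixed WT cells but 0 in pure and 4 in mixed cancer cells. Notum and Nkd1, Wnt feedback genes that rise once Apc is lost, were higher in cancer cells by 5.41 (edgeR adjusted p = 1.93e-05) and 5.44 (edgeR adjusted p = 1.01e-06) on the log2 scale. Axin2, another such gene, was not called over both culture types, at 1.33 (edgeR adjusted p = 0.0950). Its mean was lower in pure cancer (58.8 CPM) than in pure WT cells (111 CPM), but higher in mixed cancer (189 CPM) than in mixed WT cells (9.89 CPM). Reads from the 3′ end need not cover the altered parts of Apc or Trp53, so the counts of those genes do not check the genotype.

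Among the surface proteins, Lgr5, the R-spondin receptor that defines crypt base stem cells, lies at chr10:115450311-115587780 (GRCm38). Lgr5 reached 25.7 and 65.0 CPM in pure WT (A01, A05), 0 and 48.3 CPM in mixed WT (A02, A06), 0 and 31.8 CPM in pure cancer (A03, A07) and 38.0 and 55.5 CPM in mixed cancer cells (A04, A08). Both libraries without a read, A02 and A03, were shallow, and A06 and A07 lay inside the range of pure WT cells. By mean, mixed cancer (46.8 ± 12.3 CPM, SD, n = 2) was first, then pure WT (45.3 ± 27.8), mixed WT (24.2 ± 34.2) and pure cancer cells (15.9 ± 22.5). All neighbors in this order overlapped.

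Ephb2, a receptor for ephrin-B ligands that helps to position cells along the crypt, lies at chr4:136647539-136835988. Its level was 33.6 and 16.8 CPM in pure WT, 0 and 15.4 CPM in mixed WT, 10.2 and 17.4 CPM in pure cancer and 33.9 and 25.2 CPM in mixed cancer cells. The reads behind these values were few, 38 and 31 in pure WT, 0 and 7 in mixed WT, 2 and 6 in pure cancer and 180 and 5 in mixed cancer cells. Mixed cancer cells (29.6 ± 6.13 CPM) were followed by pure WT (25.2 ± 11.9), pure cancer (13.8 ± 5.05) and mixed WT cells (7.69 ± 10.9), again with overlap between all neighbors.

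Cd44, a hyaluronan receptor and Wnt target of the crypt, lies at chr2:102811141-102901665. Its level was 37.2 and 82.8 CPM in pure WT, 51.2 and 72.5 CPM in mixed WT, 163.6 and 121.5 CPM in pure cancer and 124.1 and 55.5 CPM in mixed cancer cells. Both pure cancer libraries stood above all 4 WT libraries, while of the mixed cancer libraries A04 lay above the WT range and A08 inside it. In order of the mean, pure cancer cells had 143 ± 29.7 CPM, mixed cancer cells 89.8 ± 48.5, mixed WT cells 61.8 ± 15.1 and pure WT cells 60.0 ± 32.3, and each overlapped its neighbor.

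Prom1 encodes prominin-1, or CD133, a membrane glycoprotein of stem and other crypt cells, and lies at chr5:43993620-44102032. An exon of Gm16401 on the other strand overlaps it, and whether counting used the strand is not given in the sources used here. Prom1 had 28.3 and 46.6 CPM in pure WT, 64.0 and 149.4 CPM in mixed WT, 35.8 and 78.1 CPM in pure cancer and 60.8 and 70.6 CPM in mixed cancer cells. Library A06 was highest of all, and both pure WT libraries lay below both mixed WT and both mixed cancer libraries. Of these, A02 had 5 and A08 had 14 reads of Prom1. The group means were 107 ± 60.4 CPM in mixed WT, 65.7 ± 6.94 in mixed cancer, 57.0 ± 29.9 in pure cancer and 37.4 ± 12.9 in pure WT cells, with overlap between neighbors.

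Of the transcription factors, Ascl2, a Wnt-induced factor that maintains the crypt base stem cell, lies at chr7:142966829-142969264. Ascl2 had 140.7 and 127.2 CPM in pure WT, 25.6 and 41.7 CPM in mixed WT, 35.8 and 31.8 CPM in pure cancer and 74.9 and 85.8 CPM in mixed cancer cells. The reads behind them were 159 and 235 for pure WT, 2 and 19 in mixed WT, 7 and 11 in pure cancer and 398 and 17 in mixed cancer cells. Both pure WT libraries stood above both mixed cancer libraries, which in turn stood above the 4 libraries of mixed WT and pure cancer cells. The latter groups, at 33.7 ± 11.4 and 33.8 ± 2.79 CPM, overlapped. Different molecule barcodes leave out amplification copies, but molecules that share a barcode count once, and no count of a gene exceeded 256. For Ascl2 they numbered 69 and 84 in pure WT, 1 and 6 in mixed WT, 5 and 5 in pure cancer and 127 and 12 in mixed cancer cells. In A04 the estimated transcript count of Ascl2 was 175.

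Sox9, a factor of crypt base stem cells and Paneth cells, lies at chr11:112782224-112787760. It had 80.5 and 131.0 CPM in pure WT, 25.6 and 65.9 CPM in mixed WT, 20.4 and 133.1 CPM in pure cancer and 82.8 and 126.1 CPM in mixed cancer cells. Both mixed WT libraries were below both pure WT libraries, with 2 reads in A02 and 30 in A06. The pure cancer libraries lay far apart, with 4 reads in A03 and 46 in A07. Group means ran from pure WT (106 ± 35.7 CPM) through mixed cancer (104 ± 30.6) and pure cancer (76.8 ± 79.7) to mixed WT cells (45.8 ± 28.5), and neighbors overlapped.

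Of the secreted markers, Smoc2 separated WT from cancer cells. Smoc2, a calcium-binding matrix protein enriched in crypt base stem cells, lies at chr17:14279506-14404790. Smoc2 had 158.4 and 206.8 CPM in pure WT, 51.2 and 79.1 CPM in mixed WT, 0 and 0 CPM in pure cancer and 0.753 and 0 CPM in mixed cancer cells. Its reads numbered 179 and 382 in pure WT, 4 and 36 in mixed WT, 0 in both pure cancer libraries, 4 in A04 and 0 in A08. All 4 WT libraries were above all 4 cancer libraries, and both pure WT libraries were above both mixed WT libraries.

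Olfm4, a secreted glycoprotein and Notch target that marks the same cells, lies at chr14:79984081-80023139, where an exon of Gm6999 overlaps it on the same strand. Olfm4 had 7 reads in A01 and 18 in A05, or 6.19 and 9.74 CPM, from 3 and 13 barcodes. The other 6 libraries had 0 reads. In A02, A03 and A08 the level that 3 reads would make was above both pure WT values. In A04, the deepest library, it was below them. For all 8 markers, 0% of the 50-base windows over the last 500 bases of the transcripts recurred in another gene.

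**Figure D1:**
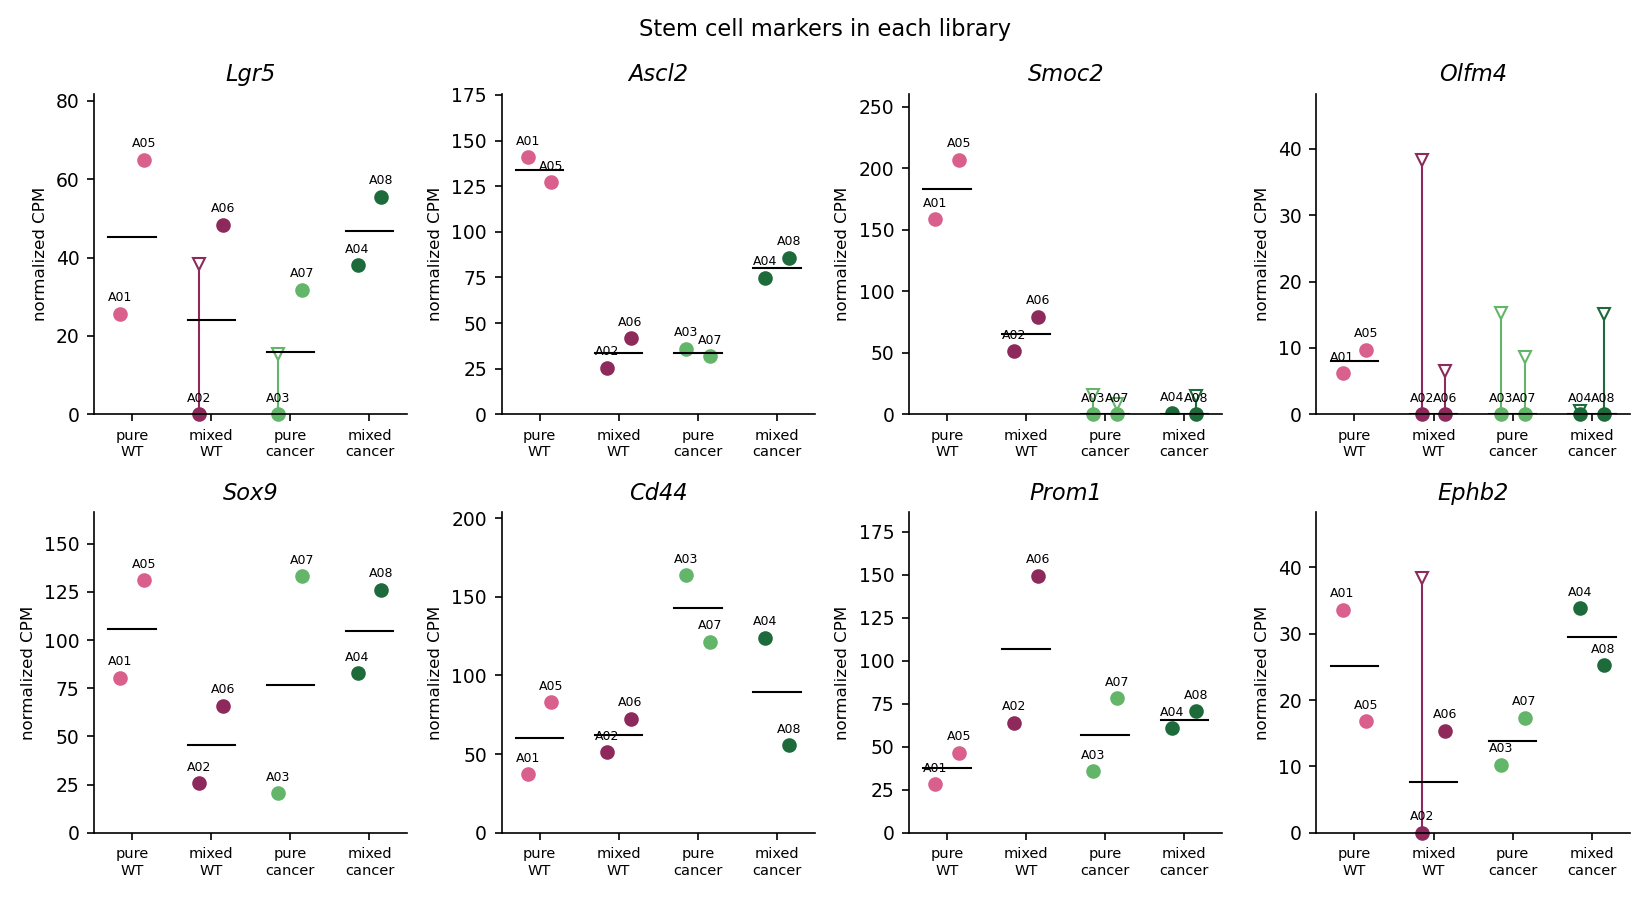
Normalized CPM (vertical axis, from 0, with its own scale for each gene) of the 8 stem cell markers in the 8 libraries, by group. Each point is a library named by its well, the black bar is the mean of the 2 libraries, and an open triangle shows the CPM that 3 reads would make in a library with 0 reads. Smoc2 is at or near 0 in all 4 cancer libraries, Olfm4 has reads only in A01 and A05, and Ascl2 is highest in both pure WT libraries.

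The first comparison asked how stem cell markers in WT cells stood after 3 days beside cancer cells. In mixed WT cells, Ascl2, Smoc2 and Sox9 were below pure WT cells without overlap, Prom1 was above, and Lgr5 and Cd44 overlapped. In A02 these separations rested on few reads, 2 of Ascl2, 4 of Smoc2, 2 of Sox9 and 5 of Prom1. Ephb2 and Olfm4 were lower too when 0 reads are taken as a level of 0, but in A02 the level that 3 reads would make (38.4 CPM) was above every pure WT value of either gene, so no separation was detectable at that depth. No member passed the test: 0 of 7 had an adjusted p under 0.05 (edgeR quasi-likelihood test, Benjamini-Hochberg over all 5264 genes, as for every adjusted p here), where 0.741% of all tested genes did. Groups of 2 separate easily, and 28.5% of all tested genes were lower and 15.1% higher without overlap, beside 4 (Ephb2 included) and 1 of the 7 tested markers, with 0 reads taken as 0 throughout. At an unadjusted p under 0.05, 2 markers were lower and 1 was higher, beside 4.67% and 5% of all tested genes, and DESeq2 also called 0 of the markers. The median log2 fold change of the 7 tested markers was -1.01, and that of all tested genes was -0.10. In bulk RNA, fewer cells that express a marker and less of its RNA per cell cannot be told apart.

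Ascl2 had the lowest p of the markers in this comparison, with a log2 fold change of -1.87 (SE 0.645, edgeR adjusted p = 0.253). The 95% interval of its log2 fold change ran from -3.20 to -0.53. On barcode counts in place of reads it passed, with a log2 fold change of -2.34 (edgeR adjusted p = 0.0224), and on estimated transcript counts too, with -2.36 (edgeR adjusted p = 0.0465). Without A02, the shallowest library, the log2 fold change of Ascl2 in reads was -1.73 (edgeR adjusted p = 0.371). Over all 16 alternatives its adjusted p ranged from 0.0224 to 0.956, and its sign did not turn.

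Smoc2 had a log2 fold change of -1.41 in mixed WT cells (SE 0.637, edgeR adjusted p = 0.462). Sox9 had -1.01 (SE 0.712, edgeR adjusted p = 0.716) and Ephb2 -1.08 (SE 0.978, edgeR adjusted p = 0.792). For Olfm4, 25 reads in pure WT against 0 in mixed WT cells made it at least 1.49-fold lower, measured against the CPM of 3 reads over both mixed WT libraries, and the counting interval of the ratio reached up to 0.888. That limit rested on A06, and without it no limit below pure WT cells was left. Leaving out A06 moved the value of Sox9 to -2.15 and that of Ephb2 to -8.05, the latter against 0 reads and so no measure of size.

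Prom1 went the other way, with a log2 fold change of 1.60 (SE 0.648, edgeR adjusted p = 0.374). A06 carried much of this value: without A06 it was 0.66, and on barcode counts, where A06 had 28 barcodes for its 68 reads, it was 0.73. Lgr5 differed by less than the spread between libraries, at -0.46 (SE 0.906, edgeR adjusted p = 0.935), and its interval from -2.33 to 1.42 leaves a wide range of sizes. Its sign turned without A02 (0.03) and without A05 (0.32). Cd44 stood at 0.10 (SE 0.639, edgeR adjusted p = 0.991), and its sign turned without A01 (-0.36) and without A06 (-0.35).

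Markers of Paneth cells, the neighbors of the stem cell in the crypt, were also summed in these groups. Their summed level over 6 genes was 2086 and 4040 CPM in pure WT and 896 and 1461 CPM in mixed WT cells, without overlap, and 0 of the 4 tested Paneth genes passed the test. The sum in A02 rested on 70 reads. Lyz1, the lysozyme that defines Paneth cells, had 13 reads in A02 and 144 in A06. Lyz1 and Itln1 were lower in mixed WT cells without overlap, as were 28.5% of all tested genes, while Mmp7 and Ang4 overlapped. The summed enterocyte markers overlapped, at 1230 and 649 CPM in pure WT and 1369 and 1006 CPM in mixed WT cells. The part of cell type shares in the marker levels was not tested.

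The second comparison addressed the same markers in cancer cells, mixed against pure. Lgr5, Ascl2 and Ephb2 were above pure cancer cells in both mixed cancer libraries, and Sox9, Cd44 and Prom1 overlapped. In A08 this rested on 11 reads of Lgr5, 17 of Ascl2 and 5 of Ephb2, and A07 also had 11 reads of Lgr5. The test called 0 of 7 markers and 0% of all tested genes, while 1.03% of all genes were higher and 0.285% lower at an unadjusted p under 0.05, none of them a marker, and DESeq2 called 0 markers as well. The 3 markers higher without overlap stand beside 13.7% of all tested genes. The median log2 fold change was 1.10 for the tested markers, or 0.71 over the 6 with reads in both groups, and 0.03 for all tested genes.

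Ascl2 had a log2 fold change of 1.25 (SE 0.642, edgeR adjusted p = 1) and an interval from -0.08 to 2.57. Across its 16 alternatives the log2 fold change of Ascl2 stayed between 1.22 and 1.40. Lgr5 had 1.29 (SE 0.983, edgeR adjusted p = 1), and without A03, the library with 0 Lgr5 reads, it was 0.48. Ephb2 had 1.10 (SE 0.935, edgeR adjusted p = 1), and 1.68 without A07. Sox9 stood at 0.33 and turned to -0.40 without A03. Prom1 stood at 0.15 and turned to -0.27 without A03, to -0.13 on barcode counts and to -0.32 on transcript counts. Cd44 stood at -0.57, with -1.33 without A04 and -0.10 without A08. Smoc2 had 0 reads in pure and 4 in mixed cancer cells and Olfm4 had 0 in both, so no fold is given for either.

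Whether mixing went with a different change in WT than in cancer cells was tested as a difference of the log2 fold changes, WT minus cancer. The test called 0 of 7 markers, and 0.076% of all tested genes. DESeq2 called 0 markers too. At an unadjusted p under 0.05, 1 marker, Ascl2, was lower and 0 were higher, beside 3.93% and 3.34% of all tested genes. Ascl2 had the largest difference for its error, -3.11 (SE 0.909, edgeR adjusted p = 0.357), since both mixed WT libraries were below pure WT and both mixed cancer libraries above pure cancer cells. On barcode counts the difference for Ascl2 was -3.73 and passed (edgeR adjusted p = 0.0141). Ephb2 had -2.18 (SE 1.35, edgeR adjusted p = 0.783). Lgr5 had -1.75 (SE 1.34, edgeR adjusted p = 0.840) and Sox9 -1.34, while Cd44 and Prom1 had 0.67 and 1.46. These values moved widely when a library was left out: Lgr5 to -0.96 without A03 and -1.02 without A05, Sox9 to -0.67 without A03, -2.46 without A06 and -3.40 without A07, Cd44 from 0.17 without A01 to 1.43 without A04, and Prom1 from 0.52 to 1.84. Without A06 or, for Lgr5, A07 a group was left with 0 reads, and the fitted values, -10.19 and -9.28 for Lgr5 and -9.14 for Ephb2, are no measure of size. These differences use the same libraries as the comparisons above and add no samples.

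**Figure D2:**
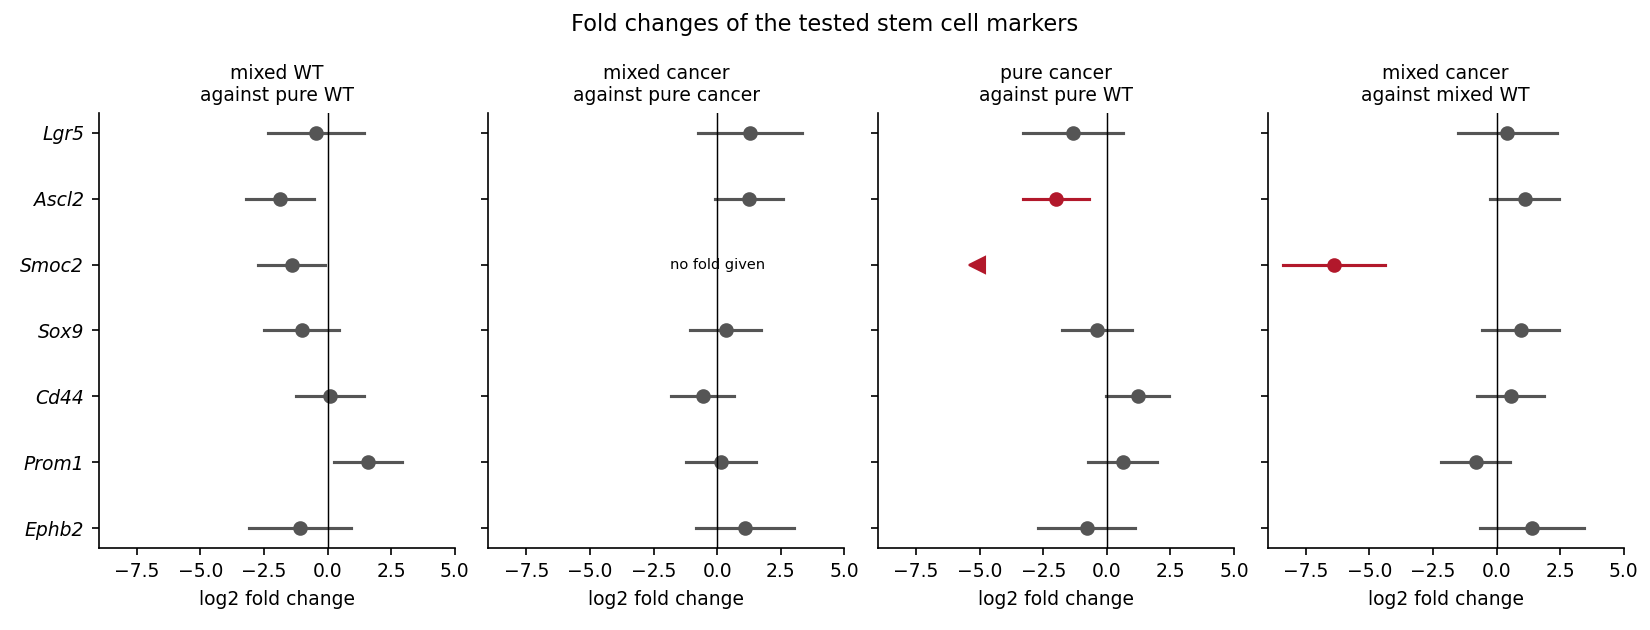
Log2 fold change (horizontal axis) of the 7 tested stem cell markers in 4 comparisons, 1 panel each. Points are edgeR estimates, bars their 95% intervals, red marks an adjusted p under 0.05, and the red arrowhead marks the bound for Smoc2 in pure cancer cells, which had 0 reads. Only Smoc2 and Ascl2 are red, and no marker is red in either comparison of mixed with pure cells.

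The third comparison set pure cancer against pure WT cells. Here 2 of the 7 tested markers were called, Smoc2 and Ascl2, both lower in cancer cells, where 9.95% of all tested genes were called and 4.84% were called lower. Smoc2 fell from 561 reads in pure WT to 0 in pure cancer cells, which made it at least 34.0-fold lower, measured against 3 reads over both pure cancer libraries. The counting interval of its ratio reached up to 0.0363, and the limit was 21.7-fold without A03 and 12.3-fold without A07. Smoc2 was called under all 16 alternatives, with adjusted p of at most 0.000855 (edgeR or DESeq2).

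Ascl2 fell by 2.00 on the log2 scale in pure cancer cells (SE 0.629, edgeR adjusted p = 0.0437), close to the threshold. The call was lost without A01 (edgeR adjusted p = 0.260), A03 (0.117), A04 (0.0527), A05 (0.273), A07 (0.223) or A08 (0.0508), and held without A02 (0.0182) or A06 (0.0176). Its size hardly moved in these fits, between -2.12 and -1.98. DESeq2 gave a log2 fold change of -1.94 and also called it (DESeq2 adjusted p = 0.0463).

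Cd44 was the marker that stood higher in both pure cancer libraries, with a log2 fold change of 1.22 (SE 0.599, edgeR adjusted p = 0.255), which was 0.70 without A01 and 2.00 without A05. Of all tested genes 23.5% were higher and 29.1% lower without overlap, beside 1 and 2 of the 7 tested markers. Lgr5 had a log2 fold change of -1.32 (SE 0.951, edgeR adjusted p = 0.481), Ephb2 -0.80 (SE 0.921, edgeR adjusted p = 0.704), and both overlapped. Lgr5 moved to -0.57 without A03 and -0.40 without A05, and Ephb2 to -0.30 without A01 and -1.39 without A07. Without A07 no Lgr5 read was left in pure cancer cells, and the fitted -8.91 is no measure of size. Sox9 stood at -0.40, and turned to 0.28 without A03 and to 0.11 without A05. Prom1 stood at 0.63, and turned to -0.18 without A07. Olfm4, with 25 reads against 0, was at least 1.51-fold lower, with a ratio interval up to 0.875, and no limit was left without A03 or without A07. The median log2 fold change was -0.80 for the tested markers, or -0.60 over the 6 with reads in both groups, and -0.05 for all tested genes.

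The fourth comparison set mixed cancer against mixed WT cells, and Smoc2 alone of the 7 tested markers was called, where 6.42% of all tested genes were called and 4.41% were called lower. Smoc2 fell by 6.40 on the log2 scale (SE 0.964, edgeR adjusted p = 8.58e-05), with 4 reads in mixed cancer and 40 in mixed WT cells. The ratio of these counts per depth was 0.00968, with a counting interval from 0.00252 to 0.0268. It was called under all 16 alternatives, with an adjusted p of at most 0.0409 (edgeR or DESeq2). Without A04, which held all 4 reads, no Smoc2 read was left in mixed cancer cells, and Smoc2 was at least 4.96-fold lower against 3 reads in A08.

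The other markers overlapped or missed the threshold. Ascl2 had a log2 fold change of 1.11 (SE 0.657, edgeR adjusted p = 0.438), Sox9 0.95 (SE 0.729, edgeR adjusted p = 0.589) and Ephb2 1.38 (SE 0.992, edgeR adjusted p = 0.548). Ascl2 and Sox9 were higher in both mixed cancer libraries, and so was Ephb2 with the 0 reads of A02 taken as 0, although 3 reads there make 38.4 CPM, above both mixed cancer values of Ephb2. Without A06 the value of Sox9 was 2.05, and without A02 it was 0.61. The 3 markers higher and 1 lower without overlap stand beside 26.4% and 18.6% of all tested genes. Lgr5 stood at 0.42 and turned to -0.12 without A02, Cd44 at 0.55 and turned to -0.26 without A04, and Prom1 at -0.82 and turned to 0.09 without A06. The median log2 fold change was 0.55 for the tested markers and 0.12 for all tested genes. Ascl2 was thus lower in pure cancer than in pure WT cells, while both mixed cancer libraries lay above both mixed WT libraries without a call. These comparisons share no library.

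Over pure and mixed cultures together, 1 of the 7 tested markers differed between cancer and WT cells, where 14.2% of all tested genes were called and 7.37% were called lower. Smoc2 was lower in cancer cells (edgeR adjusted p = 2.51e-07), with 4 reads in the 4 cancer and 601 in the 4 WT libraries, a ratio per depth of 0.00386 with a counting interval from 0.00105 to 0.00994. No fitted fold is given, since pure cancer cells had 0 reads. Pooling weighs libraries by depth, so the ratio sets mostly pure WT against mixed cancer reads. Pure WT cells held 561 of the WT reads, and A04 held all 4 cancer reads. Between mixed cultures alone the ratio was 0.00968. Without A04 no cancer read was left, and Smoc2 was at least 42.2-fold lower against 3 reads over the other libraries of cancer cells. That limit also pools both culture types. Smoc2 alone of the 8 markers was lower without overlap, as were 8.23% of all tested genes. Cd44 had a log2 fold change of 0.88 (SE 0.439, edgeR adjusted p = 0.217), which was 0.46 without A04 and 1.32 without A05. Olfm4 had 25 reads in WT and 0 in cancer libraries, which made it at least 14.4-fold lower against 3 reads over the 4 cancer libraries, with a ratio interval up to 0.0922. This limit rested on A04: without A04 it was 1.76-fold, and without A05 it was 8.49-fold. All of its WT reads were in pure cultures and A04 came from a mixed culture, so the 14.4-fold limit mixes line with culture type. Between pure cultures alone Olfm4 was at least 1.51-fold lower. Between mixed cultures both groups had 0 reads, which gives no limit.

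The markers of mature cells also separated the lines. Enterocyte markers summed to 649 to 1369 CPM in WT and 0 to 10.2 CPM in cancer libraries, goblet cell markers to 1715 to 3175 against 7.15 to 20.4 CPM, and enteroendocrine markers to 288 to 610 against 0 to 1.32 CPM. In A04, the cancer library with 4 Smoc2 reads, the enterocyte markers had 18 reads and the goblet markers 38. Immune markers summed to 0 to 66.6 CPM, from Cd68 alone, fibroblast markers had 1 read in A04, and no endothelial marker was in the table. The part of these cells in the marker levels was not tested.

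Other stem cell genes, from a list of 20 crypt base genes of which 15 were tested, were split. In neither comparison of mixed with pure cells was any of the 15 called. Axin2, a Wnt feedback gene of the list, had a log2 fold change of -2.87 in mixed WT cells (SE 0.791, edgeR adjusted p = 0.116). In mixed cancer cells Axin2 had 1.61 (SE 0.658, edgeR adjusted p = 1). Its reads were 83 and 275 in pure WT, 0 and 9 in mixed WT, 10 and 23 in pure cancer and 589 and 53 in mixed cancer cells. Median log2 fold changes of the 15 were -0.64 in mixed WT and 0.41 in mixed cancer cells. Igfbp4, a secreted binding protein of insulin-like growth factors, and Kcnq1, a potassium channel, had -0.49 and -0.32 in mixed WT cells. With Axin2 they were named for the highest mean CPM of the list, which does not rank their expression.

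Between cancer and WT cells over both culture types, 2 of the 15 were called higher and 6 lower, beside 6.8% and 7.37% of all tested genes. Higher were Igfbp4, with a log2 fold change of 3.10, and Tnfrsf19, a receptor of the tumor necrosis factor family found in crypt base stem cells. Lower were Rgmb, a co-receptor for bone morphogenetic proteins, and, with their log2 fold changes, Pdgfa (-3.07), a growth factor, Lgr4 (-2.65), the R-spondin receptor related to Lgr5, Gkn3 (-2.63), a gastrokine, Slc12a2 (-2.28), an ion transporter, and Cdca7 (-1.99), a cell cycle gene. Tnfrsf19 had 443 reads in cancer and 25 in WT libraries, all of the latter in A05, a ratio per depth of 10.3 with a counting interval from 6.87 to 16.1. Rgmb had 12 reads in cancer libraries, all in A04, and 136 in WT libraries, a ratio per depth of 0.0512 with an interval from 0.0258 to 0.0924. Both genes had 0 reads in a whole group, mixed WT for Tnfrsf19 and pure cancer for Rgmb, so no fitted fold is given. Pdgfa and Lgr4 each had 2 reads in pure cancer cells. In mixed cancer cells Pdgfa had 37 reads, all in A04, and Lgr4 had 45, of which 41 were in A04. Lgr5 itself had no call in any of the 6 tests. In pure cultures alone 1 of the 15 was called higher and 2 lower, beside 5.11% and 4.84% of all tested genes. In mixed cultures 3 were called higher and 1 lower, beside 2.01% and 4.41%, among them Axin2, higher in mixed cancer than in mixed WT cells by 3.57 (edgeR adjusted p = 0.00580).

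Of 5 reserve stem cell genes, Hopx and Clu were abundant enough to test. Hopx, which marks slow-cycling crypt cells, was lower in cancer than WT cells by log2 -3.77 (SE 0.447, edgeR adjusted p = 1.09e-06). Clu, a marker of the stem cells that appear after injury, was higher by 2.80 (SE 0.531, edgeR adjusted p = 0.000469). Its libraries overlapped, with 692 CPM in mixed WT A06 and 368 CPM in pure cancer A03. Clu was not called between mixed cancer and mixed WT cells. In mixed against pure WT cells it had a log2 fold change of 1.99 (SE 0.738, edgeR adjusted p = 0.311). Among 12 niche ligands and receptors 3 were tested, and Tgfa, a ligand of the EGF receptor, was called higher in cancer cells by 1.76 (SE 0.583, edgeR adjusted p = 0.0441). Neither Lrp5, a Wnt co-receptor (0.12), nor Fzd5, a Wnt receptor (-1.50), was called. Of the ephrin ligands and Eph receptors that act with Ephb2, 3 of 4 were tested and none was called, with Ephb3 at -1.59 (SE 0.577, edgeR adjusted p = 0.0720), Efnb1 at -0.41 and Ephb4 at 0.21 in cancer against WT cells.

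**Figure D3:**
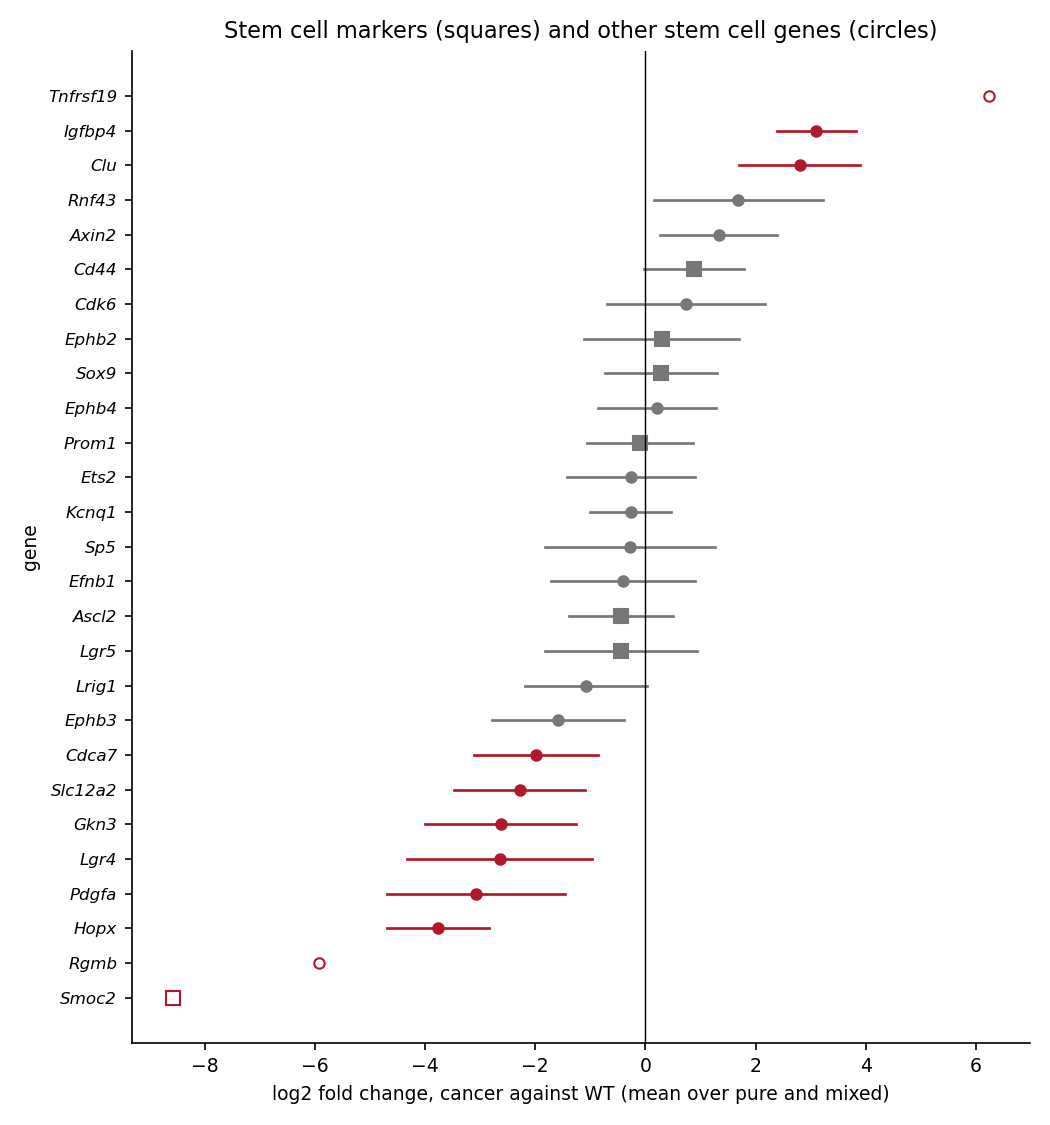
Log2 fold change (horizontal axis) of cancer against WT cells over pure and mixed cultures, for the tested stem cell markers (squares) and other tested crypt base, reserve and ephrin family genes (circles), in order of size. Bars are 95% intervals and red marks an edgeR adjusted p under 0.05. Open symbols without a bar are genes with 0 reads in a whole group (Smoc2, Rgmb and Tnfrsf19), whose fitted position is no measure of size. Smoc2 lies at the bottom, Tnfrsf19 at the top, and the 6 other squares lie between the red groups.

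Across the 8 libraries the markers did not share a single pattern. Pearson correlations of log2 CPM between the 21 pairs of tested markers ran from -0.62 for Smoc2 and Cd44 to 0.94 for Lgr5 and Sox9, and Lgr5 with Ascl2 had 0.63. These are descriptions over 8 libraries that share groups and differ in depth. The tested genes of at least 50 reads per library on average that were most like each marker were Luc7l for Lgr5 (r = 0.978), Llgl1 for Ephb2 (0.985), Golga7 for Cd44 (0.924), Dcaf12 for Prom1 (0.952), Gar1 for Ascl2 (0.958), Csnk2b for Sox9 (0.975) and Clps for Smoc2 (0.998). These were the highest of 2744 or 2745 candidates over 8 libraries and are given as a description. The next most like were AU040320 and Tmem171 for Lgr5, Tbc1d10b and Sec61a1 for Ephb2, Nap1l1 and Snw1 for Cd44, Dync1i2 and Pold4 for Prom1, 0610010K14Rik and Mrps12 for Ascl2, Timm44 and Stt3a for Sox9, and Gm1123 and Ckb for Smoc2. No other stem cell gene was among them. Those with a lower mean, such as Lgr5 and Ephb2, were not candidates, so nothing is drawn from this absence.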

How the data were processed

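Bulk RNA of 8 sorted libraries was sequenced after CEL-Seq preparation. Per the study's methods, the authors aligned read 2 to the mm10 RefSeq transcriptome with BWA, discarded reads that mapped equally well to several places and counted with featureCounts. The deposited read counts per gene are raw and include amplification copies; the deposited barcode counts give the different molecule barcodes per gene, and the deposited estimated counts of transcripts go with those barcode counts, by a method not given in the sources used here. The authors' table of mixed against pure WT cells (DESeq2 1.22.2 log2 fold changes and p-values) was not used.

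Groups and wells were taken from the labels, and 2 entries that are not mouse genes were left out. Read counts were tested with edgeR 4.0.16 in R 4.3.3: filterByExpr at a minimum count of 10, TMM factors and a quasi-likelihood fit of all 8 libraries, with Benjamini-Hochberg adjustment over 5264 genes and calls at an adjusted p under 0.05. Standard errors were taken as the size of the log2 fold change over the root of F. Counting intervals are 95% Clopper-Pearson intervals on pooled reads, and correlations used a prior count of 2. Transcript counts were rounded to whole numbers. The procedure was checked on simulated data. Depending on the comparison, it called 1.6% to 3.2% of simulated 2-fold changes, 24% to 33.6% of 4-fold and 62.8% to 72% of 8-fold changes. Most changes of 4-fold or less were thus missed. Replicates within each group differed by more than sampling noise, with chi-square over degrees of freedom of 4.70 to 9.37.

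Alternative fits took the barcode or the transcript table, other scaling (upper-quartile, median-of-ratios), no filter, a minimum of 50, just the 4 libraries of a comparison, DESeq2 1.42.0, or left out each library in turn. The markers and lists were chosen with earlier results of these data known. Named genes are the 8 markers, list genes that were called or among the 3 with the highest mean level, and the 3 genes most like each marker. An item of the cancer genotype is not reported here. Positions are from GENCODE vM21 (GRCm38).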

Additional observations from a re-analysis of the deposited data

Results flagged for a closer look

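Ascl2 and Ephb2 were singled out because, on mixing, both WT libraries lay below pure WT and both cancer libraries above pure cancer cells when 0 reads are taken as a level of 0. The difference of the mixing change, WT minus cancer, was -3.11 on the log2 scale for Ascl2 and -2.18 for Ephb2. Neither difference passed the test (edgeR adjusted p = 0.357 for Ascl2 and 0.783 for Ephb2). Ascl2 rested on 2 and 19 reads in mixed WT and 7 and 11 in pure cancer cells, and Ephb2 on 0 and 7 and on 2 and 6. For Ephb2, the 0 reads of A02 show no direction, since 3 reads there make 38.4 CPM, above both pure WT values (33.6 and 16.8 CPM).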

How the results depend on the processing

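Of 535 alternative fold changes of the markers, 509 kept their sign and side of the threshold, 8 lost a call, 3 gained a call and 15 turned sign. No marker that turned sign was called in any of these fits. The number of markers called moved from 0 to 1 (Ascl2) in mixed against pure WT cells on barcode counts and on transcript counts, and from 0 to 1 (Ascl2) for the difference of the mixing change on barcode counts. It moved from 2 to 1 in pure cancer against pure WT cells without a filter (Ascl2, edgeR adjusted p = 0.0659) and at a minimum count of 50 (0.0797), and ranged from 1 to 2 without 1 library. Sign turned for Cd44 in mixed against pure WT cells without a filter (-0.043), and for Prom1 in mixed against pure cancer cells on barcode (-0.13) and transcript counts (-0.32). Leaving out 1 library, log2 fold changes ranged in mixed against pure WT cells from -8.92 to 0.32 for Lgr5 and from -0.36 to 0.82 for Cd44. They ranged in mixed against pure cancer cells from -0.40 to 2.37 for Sox9 and from -0.27 to 0.93 for Prom1, in pure cancer against pure WT cells from -2.48 to 0.28 for Sox9 and from -0.18 to 1.14 for Prom1, and in mixed cancer against mixed WT cells from -0.12 to 8.86 for Lgr5, from -0.26 to 0.98 for Cd44 and from -1.20 to 0.088 for Prom1. Values near 9 are against 0 reads and have no meaning as a size. The cause of the turns was not tested.

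Over all genes, 39 were called in mixed against pure WT cells, against 93 on barcode, 82 on transcript counts, 68 without a filter, 73 by DESeq2, 108 with 4 libraries and 2 to 118 without 1 library, with 2 without A06 and 8 without A05. At a minimum count of 50, the 524 calls in pure cancer against pure WT cells became 232, the 338 in mixed cancer against mixed WT cells 151 and the 746 over both 314. Without 1 library these were 261 to 745, 167 to 506 and 547 to 963. The 4 calls for the difference of the mixing change became 23 on barcode, 10 on transcript counts, 10 without a filter, 21 by DESeq2 and 1 to 32 without 1 library.

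No paired analysis was made because no label ties a well of one group to a well of another. Both populations were sorted from mixed cultures, and whether mixed WT and mixed cancer libraries shared a culture is not stated. The fits treated all 8 libraries as independent. Depth limits every statement on mixed WT and pure cancer cells, whose 4 libraries held 17 to 215 reads of the 8 markers. The same limit holds for the mixed cancer library A08, which had 83 such reads. With 2 libraries per group, a missed call does not show that levels were alike.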

Other observations

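Among the 6 Paneth markers, those tested did not move together between cancer and WT cells. Mmp7, a matrix metalloproteinase, was higher in cancer cells by 2.92 on the log2 scale (SE 0.367, edgeR adjusted p = 2.53e-06), with 465 to 837 CPM in the cancer and 72.5 to 124 CPM in the WT libraries. Lyz1, the lysozyme, was lower by -6.76 (SE 0.555), Itln1, a lectin, by -6.05 (SE 0.450) and Ang4, an antimicrobial ribonuclease, by -7.80 (SE 0.629), all without overlap between cancer and WT libraries. The summed Paneth level of cancer libraries, 506 to 858 CPM, was therefore mostly Mmp7. Trp53, altered in the cancer line, was lower there by -1.75 (SE 0.531, edgeR adjusted p = 0.0264). Its libraries overlapped, with 12.8 CPM from 1 read in mixed WT A02 and 69.4 CPM in pure cancer A07. Trp53 was not called between mixed cancer and mixed WT cells. As stated above, these counts do not check the genotype.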
